A study of Rattus norvegicus with 6 samples.

Results

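The EGF receptor system was followed in RUCA-I cells, an epithelial line from an endometrial adenocarcinoma of the Lewis rat. Untreated, nearly confluent cells of 2 groups had been sequenced, namely 3 WT batches and 3 separately generated miR-203 -/- lines (KO). Each group entered the deposited table as 1 pooled FPKM value per gene row (fragments per kilobase of transcript, on the authors' library scaling), so the values carry no SD and the depth of each sample is unknown. The method of knockout and the clonality of each line were not stated in the labels, so loss of the microRNA and differences between the lines cannot be told apart.

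The set holds 10 of the 11778 gene symbols with a tested row. They are 3 receptors (Egfr, Erbb2, Erbb3), 5 ligands (Tgfa, Hbegf, Btc, Areg, Ereg), the protease Adam17 and the receptor inhibitor Errfi1. Members were taken by symbol, and where a symbol had several rows the longest locus was used. All 10 were tested by the authors, and all 10 averaged 1 FPKM or more. The genes were chosen by symbol with their FPKM values and calls in this same WT and KO comparison known, so those values are a description. A gene was taken as called where the q-value (the p-value adjusted over all tested rows) in the authors' deposited table was under 0.05. Coordinates are the authors' rn6 loci, which can merge neighbouring genes.

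EGFR and its relatives ErbB2 and ErbB3 are receptor tyrosine kinases that signal as pairs. Ligands are made as membrane-anchored precursors, are cut free by ADAM17 or related proteases, and bind EGFR, ErbB3 or ErbB4, while ErbB2 has no known ligand and serves as a partner. Active receptors switch on the RAS-ERK and PI3K-AKT pathways and are shut down by ubiquitination, endocytosis and the inhibitor MIG6, the product of Errfi1. In the uterus, HB-EGF is known for its role at implantation and MIG6 as a mediator of progesterone action that restrains growth of the endometrium.

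The microRNA removed in the KO lines comes in 2 mature arms, shown here because the groups differ by them. The sequences are from RefSeq (build GRCr8, chromosome 6, plus strand), with the seed, bases 2 to 8, in capitals.
rno-miR-203a-3p: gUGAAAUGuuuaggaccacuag
rno-miR-203a-5p: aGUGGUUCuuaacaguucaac
The 3p arm lies at chr6:137020756-137020777 and the 5p arm at chr6:137020718-137020738. No row of the table carries the symbol of the microRNA, so the knockout was not checked here. Matches to these seeds in the 3′ ends of the 10 mRNAs were not analysed here.

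The cells carried an epithelial pattern in both groups. Of 9 epithelial markers, 8 had a tested row, from 18.7 to 501 FPKM in WT cells and from 19.2 to 419 FPKM in KO cells, and none was called. They summed to 1388 FPKM in WT and 1382 FPKM in KO cells, with single markers on either side. At an unadjusted p under 0.05 in the authors' deposited table, Epcam was lower (501 and 419 FPKM) and Krt8 (204 and 241 FPKM) and Krt18 (103 and 121 FPKM) were higher in KO cells. The part of these differences in the results on the members was not tested. Among markers of other cell types, 1 of 7 for fibroblasts (Col1a1, 1.43 and 1.17 FPKM), 1 of 7 for leukocytes (Csf1r, 0.791 and 0.200 FPKM, called lower) and none of 5 for endothelium had a tested row. Ptprc, Pdgfra and Pecam1 were among those with no tested row under their symbols. Calls in the authors' deposited table numbered 277 among 26459 tested rows, a share of 1.05%. Of these, KO cells were higher at 130 (0.491%) and lower at 147 (0.556%). Over symbols that averaged 1 FPKM or more, 208 of 10862 were called (1.91%), 94 of them higher (0.865%) and 114 lower (1.05%).

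Hbegf and Tgfa, ligands of EGFR, were lower in KO cells and were the only members called, so 2 of 10 were called lower and none higher. The 3 receptors, Btc and Ereg stood close to their WT values, and Areg and Errfi1 were lower without passing the test. With the members chosen as stated, nothing is read from their count. The called share was 1.05% of all tested rows and 1.91% of symbols that averaged 1 FPKM or more. Over the 10 members, the log2 ratio of KO to WT had a median of −0.03, against −0.0035 over all symbols that averaged 1 FPKM or more. The quartiles of those symbols were −0.10 and 0.11, so Tgfa, Hbegf, Areg and Errfi1 lay below the lower quartile and Erbb2, at 0.11, just above the upper one.

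**Figure D1:**
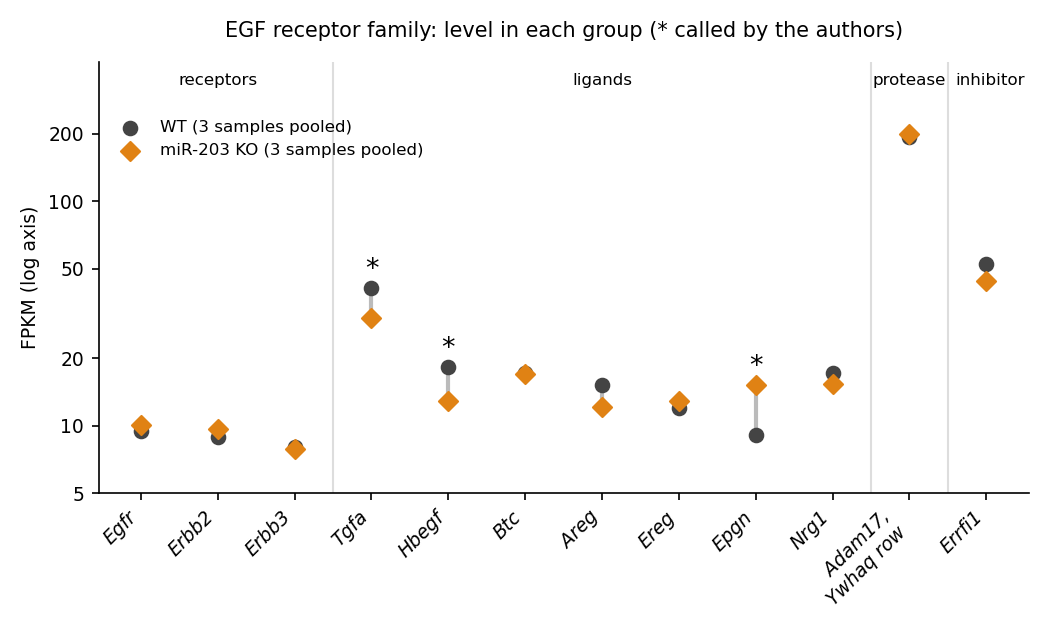
FPKM on a log axis for the 10 members and the further ligands Epgn and Nrg1, with 1 pooled value for 3 WT samples (circles) and 1 for 3 KO samples (diamonds); asterisks mark genes called by the authors, and no error bars can be drawn. Tgfa and Hbegf sit lower in KO cells, Epgn sits higher, and the receptors lie near 8 to 10 FPKM in both groups.

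The receptors were the least abundant members and differed little between the groups. Egfr, the receptor for EGF, TGF-alpha and the other member ligands, has its locus on chromosome 14 (99919384 to 100104135) and measured 9.42 FPKM in WT and 10.0 FPKM in KO cells. Erbb2, the ligand-less partner (chromosome 10, 86367376 to 86393637), measured 8.93 and 9.65 FPKM. Erbb3, which binds neuregulins and has little kinase activity of its own (chromosome 7, 2989208 to 3010447), measured 8.03 and 7.83 FPKM. None of the 3 was called, and each had q = 0.997 in the authors' deposited table. Their log2 ratios were 0.09 for Egfr, 0.11 for Erbb2 and −0.04 for Erbb3, and the first pair turned to −0.07 and −0.05 when each group was divided by its summed FPKM. Without replicate values the order of these 3 close levels cannot be set against any spread.

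Egfr made up 35.7% of the summed receptor FPKM in WT and 36.5% in KO cells, Erbb2 33.8% and 35.1%, and Erbb3 30.5% and 28.4%. The mix of the 3 receptor transcripts was thus close to even in both groups. The sum itself was 26.4 FPKM in WT and 27.5 FPKM in KO cells. Erbb4, the remaining receptor of the family, had no tested row under its symbol.

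Tgfa, which encodes TGF-alpha, was the most abundant of the ligand transcripts in both groups. It lies on chromosome 4 (117961941 to 118045959) and fell from 40.9 FPKM in WT to 30.2 FPKM in KO cells. This is a 1.36-fold decrease, or a log2 ratio of −0.44, with p = 0.0003 and q = 0.0310 in the authors' deposited table. Hbegf, which encodes heparin-binding EGF-like growth factor, lies on chromosome 18 (29329655 to 29342649) and fell from 18.2 to 12.9 FPKM. This is a 1.41-fold decrease, or a log2 ratio of −0.49, with p = 5e-05 and q = 0.00756 in the authors' deposited table. The value 5e-05 is the smallest p in the table and is shared by 175 rows, so it does not rank Hbegf among them.

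Both decreases were modest in size for called rows. The 135 rows called lower and above 0 in both groups had a median log2 ratio of −0.73, a 1.66-fold decrease. Among 5504 tested rows within 2-fold of the mean level of Hbegf, 131 (2.38%) were at least as far below WT as Hbegf. For Tgfa the count was 95 of 4127 rows (2.30%). Rows of similar ratio that were not called surround both genes in the plot of ratio against level.

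**Figure D2:**
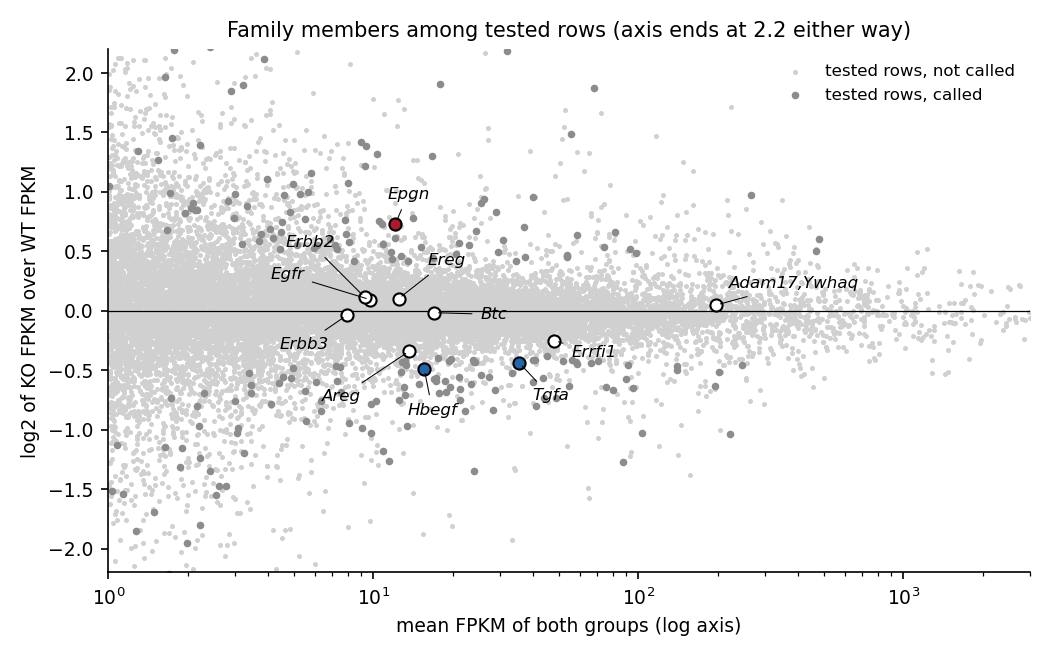
Log2 of KO over WT FPKM (y axis) against the mean FPKM of both groups (x axis, log scale) for tested rows averaging 1 FPKM or more; light grey points were not called and dark grey points were called by the authors, and named circles are blue (called lower), red (called higher) or white (not called). Hbegf at −0.49 and Tgfa at −0.44 lie at the lower edge of the main cloud, Epgn at 0.73 lies above it, and the receptors lie near 0.

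Amphiregulin, betacellulin and epiregulin, the other member ligands, were not called. Areg (chromosome 14, 18521916 to 18531156) measured 15.2 FPKM in WT and 12.05 FPKM in KO cells, a log2 ratio of −0.34, with p = 0.0433 and q = 0.806 in the authors' deposited table. This was the nearest member outside the threshold, with Tgfa the nearest inside it. A second Areg row with the same listed locus stood at 3.77 and 3.06 FPKM, a log2 ratio of −0.30, so both rows were lower in KO cells and neither passed. As the 2 rows tie for the longest locus, the one with the higher mean was used. Btc (chromosome 14, 18210555 to 18272529) measured 17.1 and 16.9 FPKM and Ereg (chromosome 14, 18574292 to 18591389) measured 12.002 and 12.9 FPKM. For both, the authors' deposited table gives q = 0.997.

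The order of the ligands by level was Tgfa, Hbegf, Btc, Areg, Ereg in WT cells and Tgfa, Btc, Hbegf, Ereg, Areg in KO cells. Hbegf and Btc changed places, as did Areg and Ereg. This order uses a single row per symbol and leaves out the second Areg row (3.77 and 3.06 FPKM). With that row added, Areg stands above both Ereg and Hbegf in each group. The order of such close levels cannot be set against any spread without replicate values. The 5 ligands summed to 103 FPKM in WT and 85.0 FPKM in KO cells, a log2 ratio of −0.28. Tgfa made up 39.6% of that sum in WT and 35.5% in KO cells, and Hbegf 17.6% and 15.2%. Btc made up 16.5% and 19.9%, Areg 14.7% and 14.2%, and Ereg 11.6% and 15.2%. Ligand transcripts outweighed receptor transcripts 3.92 to 1 in WT and 3.09 to 1 in KO cells by summed FPKM.

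Epgn, which encodes the EGFR ligand epigen and is no member of the set, moved the other way. It lies on chromosome 14 (18625970 to 18635094) and rose from 9.10 FPKM in WT to 15.1 FPKM in KO cells, a log2 ratio of 0.73, with p = 5e-05 and q = 0.00756 in the authors' deposited table. Among 5758 tested rows within 2-fold of its mean level, 88 (1.53%) were at least as far above WT. Nrg1, which encodes neuregulin 1, a ligand of ErbB3 and ErbB4, stood at 17.1 and 15.4 FPKM and was not called (q = 0.997 in the authors' deposited table). With Epgn and Nrg1 added, the 7 ligands summed to 130 FPKM in WT and 116 FPKM in KO cells, a log2 ratio of −0.17. Epgn made up 7.01% of that sum in WT and 13.1% in KO cells. Egf, Nrg2, Nrg3 and Nrg4 had no tested row under their symbols.

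**Figure D3:**
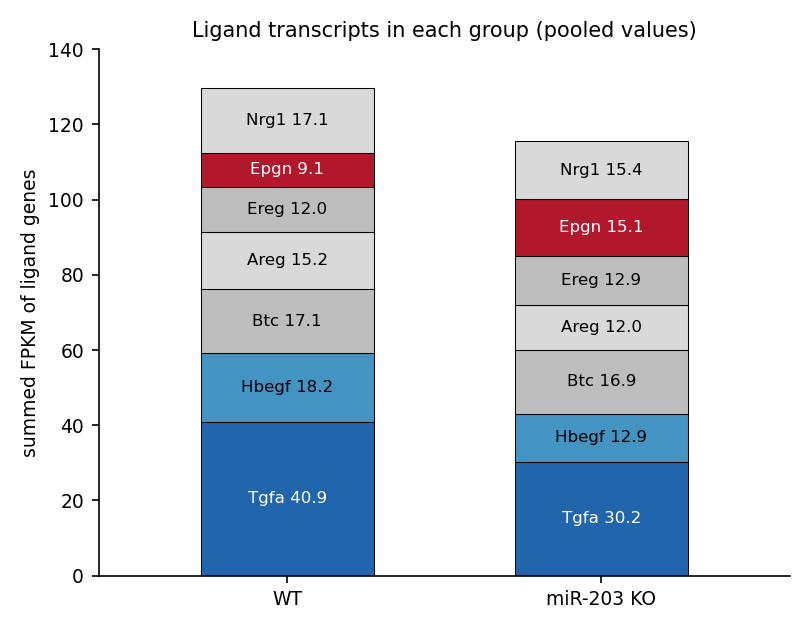
Summed FPKM of 7 ligand genes (y axis, from 0) in WT and KO cells, with 1 pooled value per gene and group printed in each segment; blue segments were called lower, red called higher and grey not called. The Tgfa and Hbegf segments are shorter in KO cells and the Epgn segment is longer, and the whole column ends at 130 FPKM in WT and 116 FPKM in KO cells.

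Btc, Areg, Ereg and Epgn form a ligand cluster on chromosome 14 that spans 425 kb (18210555 to 18635094). Neighbours in this cluster differed in direction. From Areg to Ereg the gap was 43.1 kb and from Ereg to Epgn 34.6 kb, while the log2 ratio went from −0.34 (Areg) to 0.10 (Ereg, −0.06 after division by summed FPKM) and 0.73 (Epgn). Only Epgn of the 4 was called. An unnamed row at the Epgn locus stood at 1.81 and 3.75 FPKM and was not called. Beyond the ligands, the row shared by the chemokine genes Cxcl2 and Cxcl3 fell from 107 to 72.2 FPKM. It was the only other called row among 21 within 500 kb of the cluster that averaged 1 FPKM or more. Of all 18090 rows at that level, 112 were called higher and 128 lower. The Cxcl1 row has the same listed locus as the Cxcl2 and Cxcl3 row. It stood at 16.7 and 11.7 FPKM and was not called (q = 0.997 in the authors' deposited table). The differences in response between these neighbours were not tested, since the table holds 1 value per group.

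**Figure D4:**
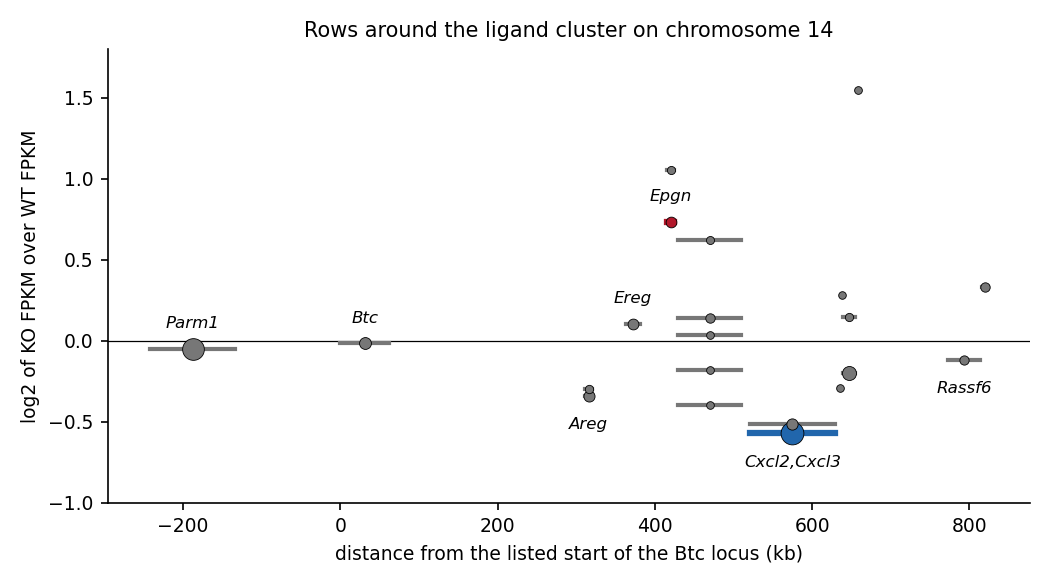
Log2 of KO over WT FPKM (y axis) against distance in kb from the listed start of the Btc locus (x axis) for 21 tested rows; bars span each listed locus, points grow with mean FPKM up to a set size, and red and blue mark rows called higher and lower. Epgn at 0.73 and the Cxcl2 and Cxcl3 row at −0.57 are the called rows, and Btc, Areg and Ereg are grey.

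Rows beside Hbegf and Tgfa held no call. Within 250 kb of the Hbegf locus, 14 other rows that averaged 1 FPKM or more had a median log2 ratio of −0.07, with 5 higher and 9 lower. Within 250 kb of Tgfa, 8 such rows had a median of −0.02. The lowest ratio among them was −0.32 beside Hbegf and −0.27 beside Tgfa, so none of these rows was as low as its neighbour at −0.49 or −0.44. Around Erbb2 there were 28 such rows with a median of 0.05, close to its own ratio of 0.11, and none was called. Of all 18090 rows that averaged 1 FPKM or more, 112 were called higher and 128 lower. At such a share, so few neighbours can hold no call without standing apart. Rows at least as low were 2.38% of those of similar level for Hbegf and 2.30% for Tgfa. So few neighbours can likewise hold none that low, and whether the decreases were confined to these genes was not tested.

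Adam17 encodes the main protease that frees TGF-alpha, HB-EGF, amphiregulin and epiregulin from the membrane. Its only row is shared with Ywhaq, the gene of a 14-3-3 protein that lies next to it, so no value of Adam17 alone is given. The shared row (chromosome 6, 43399724 to 43493875) measured 194 FPKM in WT and 200.3 FPKM in KO cells, a log2 ratio of 0.05 that turned to −0.11 after division by summed FPKM. Its q in the authors' deposited table was 0.997. How much of that level is Adam17 cannot be told apart from Ywhaq. Errfi1, the gene of the inhibitor MIG6 and itself induced by EGFR signalling, stood at 52.4 and 44.1 FPKM, a log2 ratio of −0.25, and was not called (p = 0.191 and q = 0.997 in the authors' deposited table). The listed locus of Errfi1 (chromosome 5, 167882935 to 168036075) is shared by 4 rows, among them Park7 and Tnfrsf9, so it marks a merged region rather than the gene. Park7 stood at 84.6 and 89.7 FPKM and the higher Tnfrsf9 row at 37.1 and 36.4 FPKM, neither of them called.

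Other genes shape ligand shedding. Of 12 listed, 10 had a tested row and none was called. With 1.91% of symbols averaging 1 FPKM or more called, a list of this length can hold no call without standing apart. The same holds for the 3 lists that follow. In the shedding list, the 9 that averaged 1 FPKM or more had a median log2 ratio of 0.02, with 6 higher and 3 lower. Tspan8, a tetraspanin, stood at 227 and 232 FPKM and Adam9, a metalloprotease, at 39.1 and 40.5 FPKM. Rhbdf1 and Rhbdf2, which encode the iRhoms that carry ADAM17 to the cell surface, stood at 25.7 and 26.2 FPKM and at 37.5 and 38.1 FPKM. At an unadjusted p under 0.05 in the authors' deposited table, 2 of the 10 were lower, Adam15 (22.5 and 18.1 FPKM) and the row shared by Adam8 and LOC103691261 (5.71 and 4.01 FPKM). Rhbdf1, Rhbdf2, Adam15 and Adam8 were picked after their values were seen.

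Genes that act on the receptors after activation were followed in 2 lists. Of 13 tested negative regulators, none was called, and none had an unadjusted p under 0.05 in the authors' deposited table, with a median log2 ratio of −0.04. That median was 0.02 by the log2 fold column of the authors' deposited table, and also over genes averaging 5 FPKM or more. With all rows of each symbol summed it was −0.007. Ptprj, a receptor-type phosphatase, stood at 146 and 86.9 FPKM, for which the authors' deposited table gives p = 0.212 and q = 0.997. The symbol has 5 tested rows, and these values are of the row with the longest locus only. For Ptprj the authors' deposited table lists −0.88 as the log2 fold, which differs from the −0.75 of its FPKM values. Stub1, of the same list, measured 1.34 and 0.785 FPKM, a log2 ratio of −0.77, where the authors' deposited table lists 0.13. Such a gap of over 0.01 was present in 425 of 26420 tested rows above 0 in both groups, and in none of the 10 members. Socs5, a suppressor of cytokine signalling, stood at 46.8 and 48.6 FPKM. Of 18 tested genes of receptor endocytosis and sorting, none was called and 1 had an unadjusted p under 0.05, with a median of 0.02. That gene was Ap2m1, a subunit of the clathrin adaptor AP-2 whose row is shared with Dvl3, at 242 and 286 FPKM. Cd2ap, an adaptor that links CBL to the endocytic machinery, stood at 134 and 131 FPKM.

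The core of the signalling pathways was measured in full. All 30 listed adaptors and kinases of the RAS-ERK and PI3K-AKT pathways were tested and none was called, with a median log2 ratio of 0.02, 18 higher and 12 lower. Src, a tyrosine kinase that cooperates with EGFR, stood at 64.4 and 81.1 FPKM (the authors' deposited table gives q = 0.161) and was the only one of the 30 with an unadjusted p under 0.05. Akt1, a kinase of the PI3K arm, stood at 70.7 and 72.0 FPKM.

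Genes known to be induced by ERK, the kinase at the end of the RAS pathway, held 5 calls. Of 24 listed, 22 were tested, 4 were called lower, 1 was called higher and 17 were not called. Over all symbols that averaged 1 FPKM or more the called share was 1.91%. The 21 that averaged 1 FPKM or more had a median log2 ratio of −0.11, with 15 lower and 6 higher, against −0.0035 over all symbols. By the log2 fold column of the authors' deposited table the split was 14 and 7, since Spred2 (37.2 and 34.6 FPKM) has a fold there of the other sign. Some of these calls were known when the list was written, so it gives no independent evidence of a direction.

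Egr1, an immediate early transcription factor (chromosome 18, 27657588 to 27661337), fell 1.90-fold, from 7.30 to 3.84 FPKM (q = 0.00756, the authors' deposited table). Dusp6, a phosphatase that inactivates ERK in the cytoplasm (chromosome 7, 41474996 to 41479392), fell from 46.5 to 34.9 FPKM. Dusp5, its nuclear counterpart (chromosome 1, 274245194 to 274258546), fell from 45.7 to 34.2 FPKM. The decreases of Dusp5 and Dusp6 were alike at 1.33-fold, and both had q = 0.0236 in the authors' deposited table. A second Dusp5 row with the same listed locus stood at 15.0 FPKM in both groups. Fosl1, an AP-1 subunit (chromosome 1, 220826481 to 220837286), fell from 22.4 to 16.9 FPKM (q = 0.0351, the authors' deposited table). Jun, the AP-1 subunit that pairs with FOS proteins (chromosome 5, 114011197 to 114014481), rose from 24.6 to 34.6 FPKM (q = 0.0137, the authors' deposited table). Ccnd1, cyclin D1, was the most abundant of the list and stood at 203.4 and 208 FPKM, and Ier3 stood at 81.7 and 69.0 FPKM, neither of them called.

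**Figure D5:**
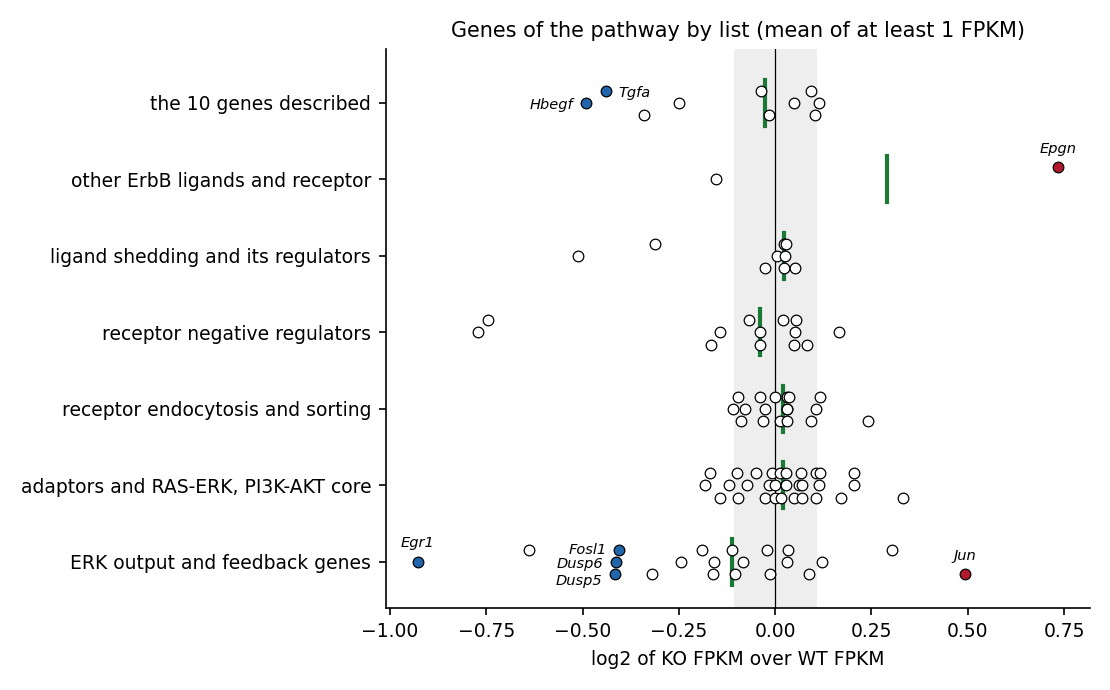
Log2 of KO over WT FPKM (x axis) for genes with a mean of at least 1 FPKM, by list (y axis); blue and red points were called lower and higher by the authors, white points were not called, green bars are medians and the grey band spans the quartiles of all symbols. Calls appear among the ligands and the ERK output genes, while the lists of shedding, receptor shutdown, endocytosis and pathway core hold none. The lists were written with earlier results of these data known, and lists of these lengths can hold no call without standing apart, so no contrast between lists is read.

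Promoter sequence was compared for the members and the called genes, with windows of 250 bases before the start that RefSeq gives (build GRCr8). A window was found for 8 of the 10 members, for Epgn and for 4 of the 5 called ERK output genes. Erbb3, Ereg and Jun had no entry. The AP-1 element TGANTCA, searched on both strands, was in none of these 13 windows, against 6.34% of 33469 windows. The cAMP response element TGACGTCA was in 1 of the 8 member windows, that of Areg, against 1.59% of all. The GC box GGGCGG was in 7 of the 8, all but Hbegf, against 30.5% of all. The Tgfa window, which lies inside the annotated gene, is counted among these 7. G and C made up 54.4% (Areg) to 74.4% (Tgfa) of the 8 member windows. That share was not compared with all windows, so no excess of GC boxes is read from the count. The TATA element TATAAA was in the windows of Areg and Errfi1, against 12.9% of all. The CArG box, the element of serum response factor, was in 2 of the 4 windows of called ERK output genes, against 1.5% of all. These were the windows of Egr1 and Dusp5. Windows of the ERK output genes that were not called were not searched, so no link of this element to the calls is read. The motifs were searched separately, and in these windows no matches of different motifs overlapped.

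The last 160 bases before the start are shown for the ligand genes Hbegf, Epgn and Areg, which were lower, higher and lower without a call in KO cells, and for Egr1 and Dusp5, which hold CArG boxes. Matches to the motifs are in capitals. Hbegf and Epgn have none.
Hbegf: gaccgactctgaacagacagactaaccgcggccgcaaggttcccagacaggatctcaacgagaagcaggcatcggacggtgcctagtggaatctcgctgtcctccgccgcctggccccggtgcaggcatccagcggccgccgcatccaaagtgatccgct
Epgn: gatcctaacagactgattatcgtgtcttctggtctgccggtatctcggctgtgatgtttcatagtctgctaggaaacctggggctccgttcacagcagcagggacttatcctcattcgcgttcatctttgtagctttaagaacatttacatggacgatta
Areg: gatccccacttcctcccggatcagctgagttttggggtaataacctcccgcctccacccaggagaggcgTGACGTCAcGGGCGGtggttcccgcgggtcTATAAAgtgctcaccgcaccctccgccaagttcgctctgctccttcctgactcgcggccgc
Egr1: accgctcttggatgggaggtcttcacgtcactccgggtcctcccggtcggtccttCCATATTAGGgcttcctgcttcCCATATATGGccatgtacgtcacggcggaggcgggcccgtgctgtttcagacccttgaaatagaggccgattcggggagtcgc
Dusp5: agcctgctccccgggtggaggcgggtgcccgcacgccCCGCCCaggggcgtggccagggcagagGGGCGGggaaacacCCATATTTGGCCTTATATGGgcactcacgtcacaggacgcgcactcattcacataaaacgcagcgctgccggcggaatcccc
On GRCr8 these lie at chr18:28390221-28390380 (Hbegf, minus strand), chr14:17369001-17369160 (Epgn, minus strand), chr14:17265642-17265801 (Areg, minus strand), chr18:26736918-26737077 (Egr1, plus strand) and chr1:262543614-262543773 (Dusp5, plus strand). Counted back from the start, the response element of Areg begins at −91 and its TATA element at −61. The CArG boxes begin at −105 and −83 in Egr1 and at −82 and −72 in Dusp5. A match describes the letters of a window, and binding was not measured here.

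The ratios were also compared under another scaling. Dividing by the summed FPKM of tested rows, which was 928084 in WT and 1039620 in KO cells, lowers every log2 ratio by 0.16. Egfr, Erbb2, Ereg and the row of Adam17 are then below 0 (−0.07, −0.05, −0.06 and −0.11), while Hbegf stands at −0.66, Tgfa at −0.60 and Epgn at 0.57. A single unnamed short row, at 4639 FPKM in WT and 56651 FPKM in KO cells, takes part in that sum, and without it the shift is 0.09. Over loci of at least 300 bp the sums were 402982 and 424009 FPKM, a shift of 0.07. With either of these sums Egfr, Erbb2 and Ereg stay above 0 (0.004 to 0.04), and the row of Adam17 is at −0.04 and −0.02. Under the deposited scaling the median log2 ratio of rows that averaged 1 FPKM or more was 0.0052.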

How the data were processed

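Per the labels' protocols, libraries from total RNA kept strand (dUTP). TopHat (version listed as 0.9), Cufflinks 2.2.1, Cuffdiff 2.2.1.3 and the build rn6 are named in the submitters' processing notes. Options and annotation: not given in the sources used here. Per the file headers, the authors deposited 1 FPKM value per group, which pools 3 samples, with the log2 fold of KO over WT, a test statistic (a score, not used), the p-value and the q-value. Of 26751 rows, 26459 were tested. Decimal commas were read as points.

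Cuffdiff's q under 0.05 was the only test. Recomputed Benjamini-Hochberg values differed from the deposited q by at most 5.12e-07. Log2 ratios are of the deposited FPKM with no pseudocount, and list medians use genes with a mean of at least 1 FPKM. A symbol's longest locus was used, and ties went to the higher mean. Members and lists were chosen with earlier results of these data known. By rule, every member is named, and of each list the called genes, otherwise the 2 with the highest mean. Other names, the motifs besides AP-1 and the sum over 7 ligands were chosen after values were seen. Older symbols were matched through RefSeq. Promoter and miRNA sequences are RefSeq's on GRCr8. The Tgfa window lies inside the annotated gene and is not printed. The scripts were tested on simulated data. Alternatives were other q thresholds and row sets, pseudocounts, scalings and row choices. Python 3.11.15, pandas 2.3.3 and NumPy 2.4.6 were used.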

Additional observations from a re-analysis of the deposited data

How the results depend on the processing

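Without values per sample, spread between batches or lines and depth set no limit that can be given here. The 2 calls, Hbegf and Tgfa, remained the called members when q was recomputed over rows averaging 1 or 5 FPKM and more. At q under 0.1, a looser limit that keeps both by construction, no further member was called. At q under 0.01 the count was 1 (Hbegf), and with a fold of at least 1.5 it was 0. With no limit on fold, 3 members (Hbegf, Tgfa and Areg) had an unadjusted p under 0.05 by Cuffdiff. The 5 called ERK output genes became 1 (Egr1) at q under 0.01 and also with a fold of at least 1.5, settings added after seeing the data. The 277 calls over all rows became 175 at q under 0.01 and 173 when q covered the smaller set of rows averaging 5 FPKM or more. Those 175 are the rows at 5e-05, the smallest p that Cuffdiff gave, so q under 0.01 keeps only rows at that floor.

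Values were taken as moved past 0.1 on the log2 scale. Of 160 alternative ratios of 16 named genes, 142 stayed within it and 6 changed sign, all under division by a summed FPKM and all of members not called. Sums over loci of at least 300 bp or without the row of largest increase were added after seeing the data. Division by the whole sum put the list medians at 0.13 (other ErbB ligands), −0.14 (shedding), −0.20 (negative regulators), −0.14 (endocytosis), −0.14 (pathway core) and −0.28 (ERK output), a shift by construction. Over all settings, Hbegf ranged from −0.66 to −0.46 and Tgfa from −0.60 to −0.42. Summing its rows gave Dusp5 a ratio of −0.30, and a pseudocount of 1 gave Egr1 −0.78. The shares of Tgfa and Hbegf among the member ligands and of Egfr among the receptors moved by less than 1.5 times when rows were summed or the row of highest mean was used. No paired analysis was possible because each group has a single pooled FPKM per row. Leaving out each replicate and the replicate block were therefore not run.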

Other observations

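Some partners of the EGF receptor family outside the lists were looked at as well, and none of them was called. Of symbols that averaged 1 FPKM or more, 1.91% were called. The partners were chosen after their values were seen, so nothing is read from their levels or the lack of calls. Cd9, a tetraspanin that binds the HB-EGF precursor, stood at 167 FPKM in WT and 161 FPKM in KO cells. The heparan sulfate carriers Sdc1 and Sdc4, syndecans, stood at 147 and 134 FPKM and at 296 and 326 FPKM, and Cd44, another cell surface proteoglycan, at 135 and 126 FPKM. Each exceeded every member ligand in both groups by FPKM. Erbin, which binds ErbB2, stood at 34.4 and 38.1 FPKM, and Muc1 at 40.5 and 38.2 FPKM. Grb7, an adaptor that binds ErbB2 and lies next to Erbb2 on chromosome 10 (86398884 to 86409005), stood at 33.3 and 39.1 FPKM, with p = 0.0391 and q = 0.782 in the authors' deposited table.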
